A study of Bos taurus with 2 samples.

Results

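The miR-130 and miR-301 family of microRNAs (miRNAs), made up of miR-130a, miR-130b, miR-301a and miR-301b, was described in small RNA sequencing libraries of collapsed and of normal bovine lung. Its members were found by name in the deposited table: a row belonged to the family when its name, without the species prefix, the arm ending and the copy number, was that of miR-130a, miR-130b, miR-301a or miR-301b. This gave 10 of 2271 rows, with 10 different sequences, of which 6 were 3p arm and 4 were 5p arm sequences. The rows were selected on their names, and the family itself was chosen with the raw reads of both libraries known, so the differences below are a description and were not tested. The study asked which miRNAs differ in a bovine model of neonatal respiratory distress that was derived by reprogramming.

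The collapsed group was 1 library of lungs labelled as collapsed, and the normal group was 1 library of lungs labelled as normal, both from Bos taurus. Per the series text, the RNA came in 2 pools of 4 newborn cows each (500 ng per sample), with cloned animals in one and normal animals in the other. That the collapsed lungs were those of the clones is an inference from that text, as the sample's own labels do not say it, and lung collapse and cloning cannot be told apart here. Pooling leaves no measure of the spread between cows, so no value below has a replicate check. The labels name no molecular identifiers, so PCR copies of a molecule may be counted more than once, and every interval and floor below covers counting error only.

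A miRNA guides a silencing complex to mRNAs that pair with its seed, bases 2 to 8 from its 5′ end, and lowers their output. miRNAs with a shared seed are thought to share many targets. In human and rodent pulmonary vessels the miR-130 and miR-301 family is known for repressing PPARG, a nuclear receptor that restrains vascular cell proliferation, and for its part in pulmonary hypertension. Each precursor hairpin can yield a mature miRNA from its 5′ side (5p) and its 3′ side (3p), and in this family the 3p arm is the well-studied one.

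The 3p sequences are shown because the shared seed defines the family, and capitals mark bases 2 to 8 in the DNA letters of the table.
miR-130a: cAGTGCAAtgttaaaagggcat
miR-130b: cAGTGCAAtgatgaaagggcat
miR-301a: cAGTGCAAtagtattgtcaaagc
miR-301b: cAGTGCAAtgatattgtcaaagc
The 4 cattle 3p sequences were equal over their first 9 bases. miR-130a and miR-130b differed at 2 of 22 bases (T11A and A13G, counted from 1 at the 5′ end of miR-130a). miR-301a and miR-301b differed at 2 of 23 (A10G and G11A, counted from the 5′ end of miR-301a). Between miR-130a and miR-301a, 10 of the first 22 bases differed, all after the seed. In the table both miR-301 sequences carry a name ending that is read here as 2 bases fewer at the 3′ end than the database entry.

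The 5p sequences, shown with the same capitals, do not share that seed.
mmu-miR-130a-5p: gCTCTTTTcacattgtgctact
hsa-miR-130b-5p: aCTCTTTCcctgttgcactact
hsa-miR-301a-5p: gCTCTGACtttattgcactact
These 3 stood under mouse (mmu) and human (hsa) names in the table. Bases 2 to 5 were the same in the 3, and their seeds as a whole were all different. In RefSeq's table of the ARS-UCD2.0 cattle assembly, MIR130B and MIR301B are next to each other with no gene between them. MIR301A stands next to MIR454, the gene of another miRNA with this seed, and the SKA2 gene spans both. MIR130A has no other miRNA gene beside it.

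The table held 2822876 reads of the collapsed-lung and 4550911 reads of the normal-lung library, and rows with 0 reads allow levels up to 1.06 and 0.659 reads per 1000000 reads of the library (RPM), a floor of 3 counts. The endothelial miR-126-3p stood at 40617 RPM in collapsed and 40439 RPM in normal lungs, and the rows of the epithelial list below summed to 10219 and 16011 RPM. Rows of liver and striated muscle miRNAs summed to 65.2 RPM in collapsed and 95.1 RPM in normal lungs.

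The family as a whole was more abundant in the collapsed-lung library. Its 10 rows summed to 1626 RPM in collapsed and 1031 RPM in normal lungs, from 4591 and 4693 reads, a ratio of 1.58 (exact conditional binomial 95% interval 1.51 to 1.64). The 3p arms summed to 1577 RPM in collapsed and 1006 RPM in normal lungs, a ratio of 1.57 (1.5 to 1.63). The much scarcer 5p arms summed to 48.9 and 24.8 RPM, a ratio of 1.97 (1.52 to 2.55). The median log2 ratio over all 487 rows with a mean of at least 10 RPM over the 2 libraries was 0.09, against 0.66 for the family sum. In bulk lung, fewer cells of a type and less RNA per cell cannot be told apart, here or in any ratio below.

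**Figure D1:**
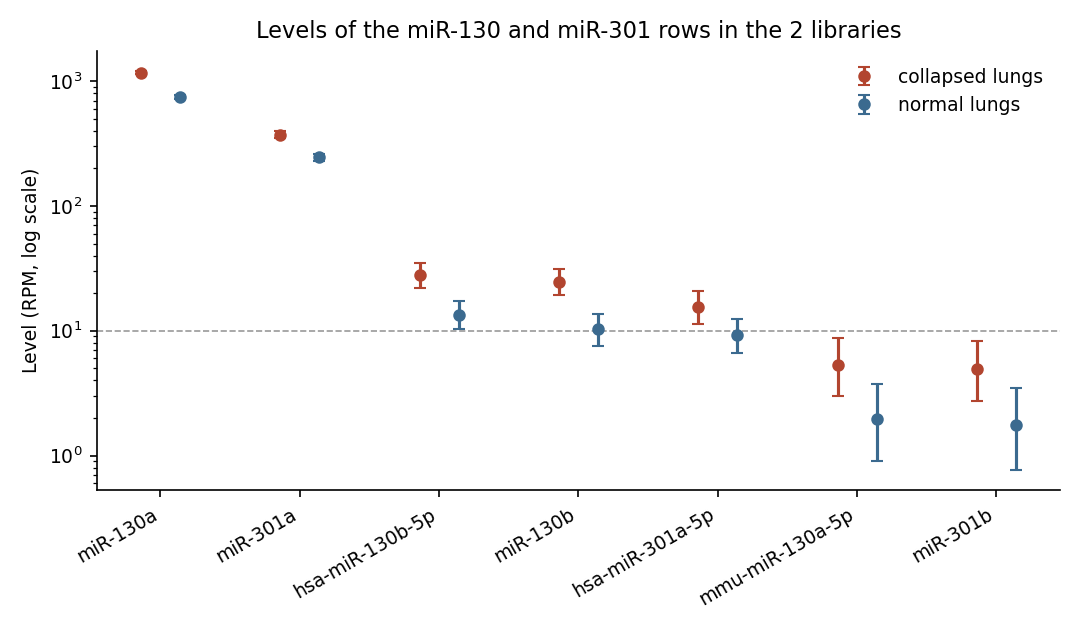
Level in RPM (log axis) of the 7 family rows with reads in both libraries, with collapsed lungs left of normal lungs, exact Poisson 95% intervals of counting error, and a dashed line at 10 RPM. Each row lies higher in collapsed lungs, with miR-130a at 1173 against 750 RPM at the top and miR-301b at 4.96 against 1.76 RPM at the bottom.

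miR-130a made up most of the family. It is known in human endothelial cells for repressing the antiangiogenic homeobox genes GAX and HOXA5. It stood at 1173 RPM in collapsed lungs (exact Poisson 95% interval 1134 to 1214) and at 750 RPM in normal lungs (725 to 775), where it ranked 94th and 119th among the rows. The ratio was 1.57 (1.49 to 1.64), from 3312.5 and 3411 reads. miR-301a, which represses the NF-kB inhibitor NKRF in human cells, was at 374 RPM in collapsed (352 to 397) and 245 RPM in normal lungs (231 to 260). Its ratio of 1.53 (1.40 to 1.66), from 1055 and 1114 reads, lay within the interval of miR-130a. For both miRNAs the intervals of the levels in collapsed and normal lungs did not overlap, and both stayed short of a 2-fold difference.

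miR-130b and miR-301b, from neighbouring genes, were scarce and had wider ratios. miR-130b, a repressor of PPARG in human fat cell precursors, stood at 24.6 RPM in collapsed (19.3 to 31.3) and 10.3 RPM in normal lungs (7.59 to 13.7). The ratio was 2.38 (1.64 to 3.55), from 69.5 and 47 reads. miR-301b was at 4.96 RPM in collapsed and 1.76 RPM in normal lungs, a ratio of 2.82 (1.10 to 7.76) on 14 and 8 reads. The 3p arms of this pair summed to 29.9 RPM in collapsed and 12.1 RPM in normal lungs, a ratio of 2.48 (1.73 to 3.52). That interval did not overlap the 1.49 to 1.62 around the ratio of 1.56 for the 3p arms of miR-130a and miR-301a together. Neither miRNA of the scarce pair was apart on its own. The interval of miR-130b, from 1.636, overlapped that of miR-130a, which reached 1.643, and that of miR-301a, which reached 1.662. The interval of miR-301b took in both. A difference between the pairs was not tested. The deposited reads of miR-130a and miR-130b in collapsed lungs both ended in a fraction of 0.5 and added up to 3382, so reads had been divided between rows. Which rows shared them was not analysed here.

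The 5p arms were higher in collapsed lungs as well where they had enough reads. hsa-miR-130b-5p stood at 28.0 RPM in collapsed (22.2 to 34.9) and 13.4 RPM in normal lungs (10.3 to 17.2), a ratio of 2.09 (1.48 to 2.97) on 79 and 61 reads. hsa-miR-301a-5p was at 15.6 and 9.23 RPM, a ratio of 1.69 (1.08 to 2.64) on 44 and 42 reads. The interval of this ratio took in equal levels under some of the other scalings described below. mmu-miR-130a-5p had 15 reads in collapsed and 9 in normal lungs, or 5.31 and 1.98 RPM, a ratio of 2.69 (1.10 to 6.96). The level intervals of hsa-miR-130b-5p did not overlap between the libraries, while those of hsa-miR-301a-5p and mmu-miR-130a-5p did.

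The other 3 rows had 1 read in all each, and both libraries were at or below the floor. A longer form of miR-130a under a hamster name (cgr-miR-130a-3p) and the mouse-named mmu-miR-301b-3p had 1 read in collapsed and 0 in normal lungs. The sequence of mmu-miR-301b-3p differed from the cattle miR-301b at A11G. The row bta-mir-301b-p5, a sequence of 16 bases, had 0 reads in collapsed lungs and 1 in normal lungs. It was counted with the 5p arm because it lacks the family seed and its name ends in p5. Its bases 2 to 5 were not those shared by the other 5p rows, and whether it is a mature 5p arm was not tested.

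Calls were made for rows with a mean of at least 10 RPM: higher for a ratio of 2 or more, lower for 0.5 or less, each with an interval clear of 1. By this rule 5 of the 10 family rows were abundant enough, and 2 of these 5, miR-130b and hsa-miR-130b-5p, were called higher, with 0 called lower. In the whole table, 17 of 487 rows (3.49%) were called higher and 14 (2.87%) lower. With totals, the intervals of all 5 lay above 1, as did those of 174 of the 487 rows (35.7%). The interval of hsa-miR-301a-5p included a log2 ratio of 0 after trimmed-mean scaling (-0.004 to 1.29). It also did so on the authors' own scaling (-0.015 to 1.27). Since the family was picked with these values known, no meaning is read from its counts. The call of hsa-miR-130b-5p was lost with each other scaling of the libraries, at log2 ratios of 0.97, 0.95 and 0.93, and with a pseudocount of 5 reads, at 0.99. miR-130b kept its call with all 3 scalings, its log2 ratio then lying between 1.13 and 1.16. Over the table the calls were 54.8% higher with totals and 44.1%, 42.9% and 41.7% higher with median-of-ratios factors, a trimmed mean and the authors' normalized values.

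**Figure D2:**
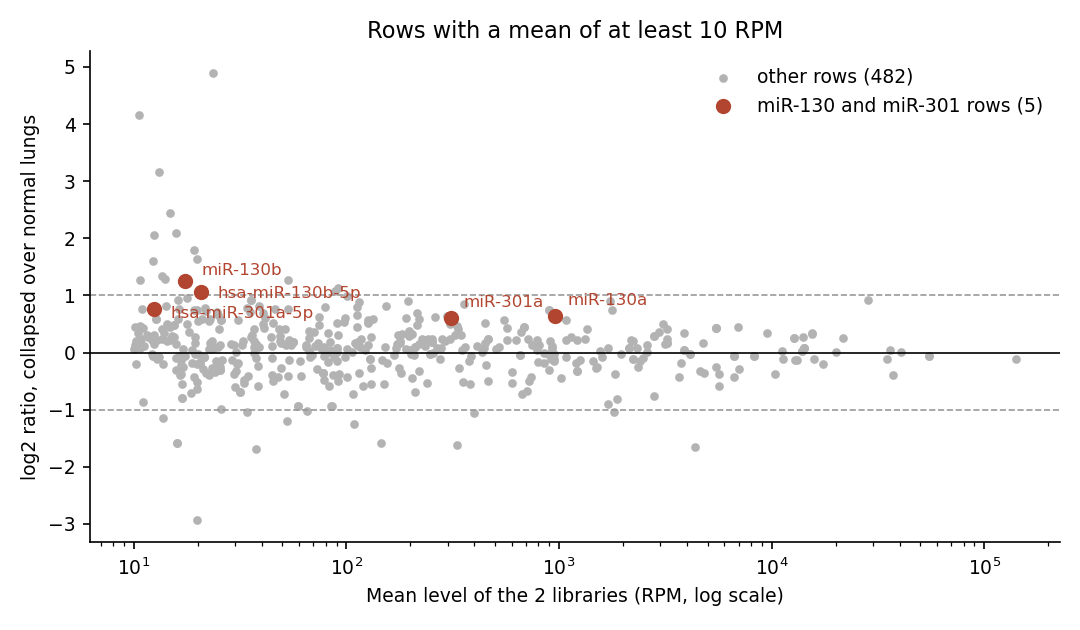
Log2 ratio of collapsed over normal lungs against the mean level of the 2 libraries (RPM, log axis) for 487 rows of at least 10 RPM, with the 5 family rows in red and dashed lines at a 2-fold difference. All 5 lie above 0, and miR-130b and hsa-miR-130b-5p lie above the upper dashed line among scarce rows that scatter widely.

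Rows of like abundance place these ratios. Among 61 other rows within 2-fold of the mean level of miR-130a, 93.4% had a lower ratio than miR-130a, and their quartiles of the log2 ratio were -0.25 and 0.23. Among 77 such rows for miR-301a, 93.5% had a lower ratio. For miR-130b there were 147 rows, of which 91.8% had a lower ratio and 12 were called higher, so 2-fold ratios were more common at its level than near miR-130a, where 0 of 61 were called higher. For hsa-miR-130b-5p and hsa-miR-301a-5p the shares with a lower ratio were 92.5% of 160 and 84.5% of 116 rows.

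In the authors' deposited table, which gives the fold of collapsed over normal lungs on another scaling, miR-130b was at 2.18, mmu-miR-130a-5p at 2.46 and miR-301b at 2.58. In the authors' deposited table miR-130a stood at 1.43, miR-301a at 1.40, hsa-miR-301a-5p at 1.55 and hsa-miR-130b-5p at 1.91. Their normalized reads matched the raw reads over a single factor for each library in all 10 family rows.

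The shares of miR-130a and miR-301a in the family were much the same in both libraries, and shares within the family do not depend on scaling. miR-130a gave 74.4% of the family's 3p reads in collapsed lungs (exact Clopper-Pearson 95% interval 73.1 to 75.7%) and 74.5% in normal lungs (73.2 to 75.7%). miR-301a gave 23.7% (22.4 to 24.97%) in collapsed and 24.3% (23.1 to 25.6%) in normal lungs. miR-130b and miR-301b together gave 1.90% (1.51 to 2.33%) in collapsed and 1.20% (0.906 to 1.56%) in normal lungs, with intervals that overlapped slightly. These shares rest on the same reads as the summed 3p ratios of 2.48 and 1.56 above, whose intervals did not overlap. Of the difference in summed level between the libraries, 595 RPM, miR-130a made up 71.9%, miR-301a 22.7%, miR-130b 4.85% and miR-301b 0.561%, with both arms counted.

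The balance of the arms differed strongly between the members and less between the libraries. For miR-130a the 5p arm took 0.451% (0.252 to 0.742%) of the reads of both arms in collapsed and 0.263% (0.120 to 0.499%) in normal lungs. For miR-301a it took 4.0% (2.92 to 5.34%) in collapsed and 3.63% (2.63 to 4.88%) in normal lungs. For miR-130b it took 53.2% (45.0 to 61.6%) of 148.5 reads in collapsed and 56.5% (46.6 to 66.0%) of 108 reads in normal lungs, so that both arms were about equally abundant. Within each miRNA the intervals of collapsed and normal lungs overlapped. miR-301b had 15 reads in collapsed and 9 in normal lungs over both arms, too few to compare them.

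**Figure D3:**
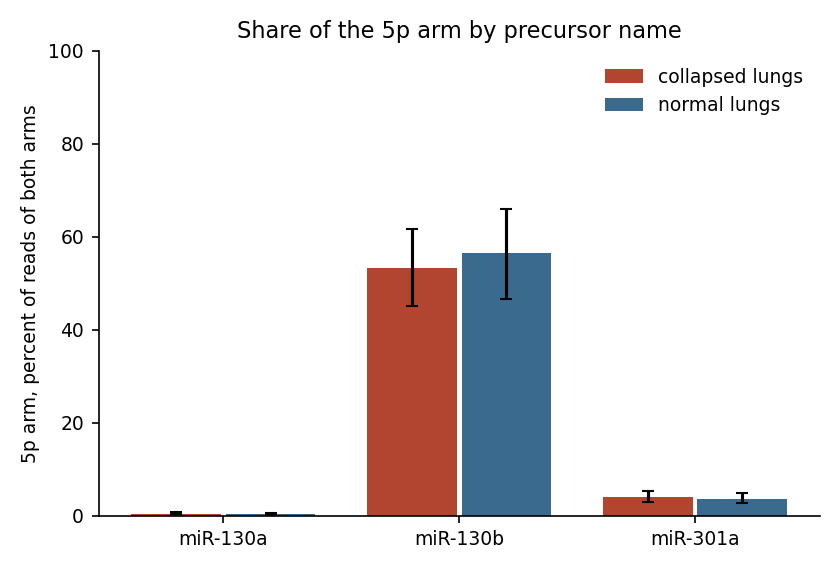
Share of the 5p arm, in percent of the reads of both arms, for miR-130a, miR-130b and miR-301a, with collapsed lungs left of normal lungs and exact Clopper-Pearson 95% intervals. The bars of miR-130b stand at 53.2% and 56.5%, against at most 4.0% for miR-130a and miR-301a.

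So even a balance was uncommon in these libraries. Over 198 precursor names with both arms and at least 100 reads in each library, the less abundant arm took a median of 1.65% of reads in collapsed and 1.46% in normal lungs. For miR-130b the less abundant arm took 46.8% in collapsed and 43.5% in normal lungs, and 2 and 6 of the 198 names had a larger share. The corresponding shares were 4.0% and 3.63% for miR-301a and 0.451% and 0.263% for miR-130a. Over the 198 names the 5p share differed between the libraries by a median of 0.344 percentage points in absolute value (75th percentile 1.44). Collapsed minus normal it was -3.28 points for miR-130b, on few reads and with overlapping intervals. It was 0.370 for miR-301a and 0.187 for miR-130a. The part of each 5p sequence that can pair with the 3p seed is shown in capitals, to set the hairpins beside these shares.
mmu-miR-130a-5p: gctcttttcacaTTGTGCTact
hsa-miR-130b-5p: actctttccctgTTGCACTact
hsa-miR-301a-5p: gctctgactttaTTGCACTact
Bases 13 to 19 of hsa-miR-130b-5p and hsa-miR-301a-5p were the full complement of the seed, with 7 Watson-Crick pairs. The same bases of mmu-miR-130a-5p allowed 5 Watson-Crick and 2 G-U pairs.

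Of the relatives with the same seed outside the family, miR-454 alone was abundant enough to compare. Its bases 2 to 8 are those of the family.
miR-454: tAGTGCAAtattgcttatagggt
miR-454 stood at 28.7 RPM in collapsed and 21.5 RPM in normal lungs, a ratio of 1.33 (0.980 to 1.81) on 81 and 98 reads, with an interval that includes 1. Its neighbour miR-301a, at 1.53 (1.40 to 1.66), lay inside that interval. A row named for platypus miR-130c (oan-miR-130c-3p), with the seed but outside the naming rule, had 2 reads in each library, and hsa-miR-454-5p had 2 in collapsed and 3 in normal lungs. In all, the 8 rows with this seed summed to 1607 RPM in collapsed and 1028 RPM in normal lungs, a ratio of 1.56 (1.5 to 1.63).

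miR-148a, miR-148b and miR-152 hold the letters AGTGCA of this seed shifted by a base, and capitals mark those letters.
miR-148a: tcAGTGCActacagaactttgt
miR-148b: tcAGTGCAtcacagaactttgt
miR-152: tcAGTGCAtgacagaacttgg
miR-148a and miR-152 are known in human cells for repressing the DNA methyltransferase DNMT1. These 3 were far more abundant than the family, with all their rows at 28410 RPM in collapsed and 23712 RPM in normal lungs, a ratio of 1.20 (1.19 to 1.21). miR-148a was at 23562 and 19786 RPM (ratio 1.19, 1.18 to 1.20), miR-148b at 1438 and 1226 RPM (1.17, 1.13 to 1.22) and miR-152 at 3311 and 2575 RPM (1.29, 1.25 to 1.32) in collapsed and normal lungs. Their intervals lay below those of miR-130a and miR-301a. Both 5p rows of at least 10 RPM were lower in collapsed lungs, hsa-miR-148a-5p at 65.9 RPM in collapsed and 80.0 RPM in normal lungs (ratio 0.824, 0.687 to 0.986) and hsa-miR-148b-5p at 26.9 and 39.1 RPM (0.688, 0.519 to 0.905). hsa-miR-152-5p, under 10 RPM, was at 6.73 and 6.59 RPM (1.02, 0.543 to 1.87). Of the 5 rows of at least 10 RPM none was called, 3 had a ratio above 1, and the median log2 ratio was 0.23.

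**Figure D4:**
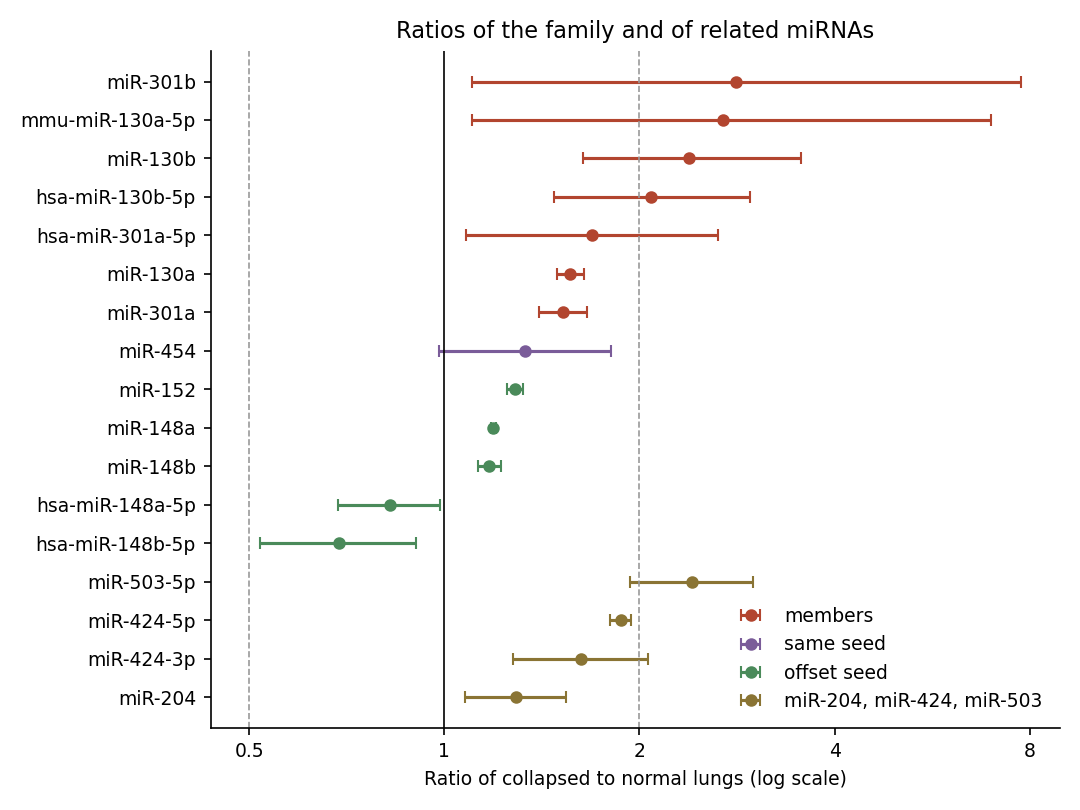
Ratio of collapsed to normal lungs (log axis) with exact conditional binomial 95% intervals for the 7 family rows with reads in both libraries, and for related rows of at least 10 RPM, with dashed lines at 0.5 and 2. The family rows lie between 1.53 and 2.82, and miR-148a, miR-148b and miR-152 between 1.17 and 1.29. hsa-miR-148a-5p and hsa-miR-148b-5p, drawn in the same offset seed group, lie at 0.824 and 0.688.

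miRNAs reported downstream of the family in human pulmonary vascular cells were taken as a list. PPARG is reported there to maintain miR-204 in smooth muscle cells and miR-424 with miR-503, which restrain proliferation, in endothelial cells. As the family represses PPARG, its reported effect on these miRNAs is to lower them. Whether it acts on them in these lungs was not tested. miR-424-5p stood at 2270 RPM in collapsed and 1213 RPM in normal lungs, a ratio of 1.87 (1.80 to 1.94), and miR-424-3p at 50.3 and 31.0 RPM, a ratio of 1.62 (1.28 to 2.06). miR-503-5p was at 75.1 and 31.2 RPM, a ratio of 2.41 (1.94 to 3.0), and was called higher. miR-204 was at 79.0 RPM in collapsed and 61.3 RPM in normal lungs, a ratio of 1.29 (1.08 to 1.54). miR-503-3p, with a mean under 10 RPM, was at 11.0 RPM in collapsed and 7.25 RPM in normal lungs. Its ratio of 1.51 (0.897 to 2.55), on 31 and 33 reads, had an interval that includes 1. The 4 rows of this list with at least 10 RPM came from 3 miRNAs, with both arms of miR-424 among them. All 4 had ratios above 1, against 58.9% of 487 rows, and their median log2 ratio was 0.80. Of the 4, 1 was called higher, against 3.49% of the 487 rows.

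Lists of cell type miRNAs differed among themselves, and their part in the family's ratios was not tested. The endothelial rows summed to 49867 RPM in collapsed and 47324 RPM in normal lungs, a ratio of 1.05, with none of 5 called, log2 ratios from 0.01 to 0.45 and a median of 0.17. The smooth muscle rows, led by miR-143 at 135034 and 146468 RPM, summed to a ratio of 0.910, with none of 4 called and a median log2 ratio of -0.25. Their log2 ratios ran from -0.58 for miR-145 to 0.43 for hsa-miR-143-5p, with 1 of 4 above 0. The epithelial rows had a summed ratio of 0.638, with 6 of 14 called lower, against 2.87% of all rows, and a median of -0.49. All 6 were rows of miR-34b or miR-34c, in 5 sequences, and the other 8 rows had ratios from 0.684 to 1.03 with none called. miR-34c, highest of the list by the mean of the 2 libraries, stood at 2105 RPM in collapsed and 6596 RPM in normal lungs. Leukocyte rows, led by miR-142-5p at 1385 and 1651 RPM, had none of 5 called and a median of -0.27. Their log2 ratios ran from -0.51 to 0.91, with 1 of 5 above 0, miR-155 at a ratio of 1.88 (1.69 to 2.10). Red cell rows, led by miR-451 at 1542 and 1637 RPM, had none of 5 called and a median of -0.05. Liver and striated muscle rows, led by miR-122 at 17.4 and 34.3 RPM, had none of 3 called and a median of -0.30. These 3 rows came from 2 names, as 1 sequence of miR-133a stood in more than 1 row. With rows of one name and sequence summed, the median was -0.64.

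The cattle miRNAs whose log2 ratio lay nearest to the 0.66 of the family sum, of 305 names with at least 10 RPM, were miR-214 at 0.63, miR-455-3p at 0.63, miR-205 at 0.69, miR-424-3p at 0.70 and miR-1246 at 0.60. With 2 libraries this likeness rests on a single ratio. miR-214 stood at 363 RPM in collapsed and 234 RPM in normal lungs, and miR-205 at 266 and 165 RPM.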

How the data were processed

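The values come from the authors' deposited table of 2 libraries, with 2271 named rows used and 2 emptied lines and 1 section heading not analysed here. Raw read counts for each row were deposited, per the file headers, and these were not all whole (84.3% of rows in the collapsed-lung and 84.5% in the normal-lung library within 0.005 reads). The authors also deposited a normalized signal, a fold change ratio with its log2 value, and p-values of chi-square and Fisher tests. The deposited p-values compare the reads of 2 libraries and were not used. Per the labels, RNA of RIN above 7.0 (about 1 ug) was made into libraries with a TruSeq small RNA kit. Per the submitters' processing notes the build was bosTau8. For the aligner, trimming and miRNA database the sources used here name no tool or release.

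Reads were scaled to the library's total in the table (RPM), and ratios got exact conditional binomial 95% intervals with reads rounded to whole numbers. For calls, 0.5 read was added to both libraries where a library had 0. Python 3.11.15 with numpy 2.4.6, pandas 2.3.3, scipy 1.17.1 and matplotlib 3.10.9 was used, and the code was tested on simulated data. With 1 library per group no count model or test was possible. Family rows were assigned to the 3p arm where they held the family seed and to the 5p arm otherwise. For the comparison over precursor names, rows without an arm label were assigned by sequence shared with labelled rows of the same name. Where only 1 arm was labelled and no sequence was shared with it, the row went to the other arm. Every family row is named, as are relatives of at least 10 RPM. So are the most abundant row of each cell type list and the 5 nearest names by ratio. hsa-miR-152-5p, oan-miR-130c-3p, hsa-miR-454-5p and miR-503-3p, all under a mean of 10 RPM, were added after their values were seen. The same holds for miR-145, hsa-miR-143-5p and miR-155. The members and all lists were chosen with earlier results of these data known. Alternatives were other scalings (median of ratios over rows of at least 10 reads, a trimmed mean and the authors' normalized values), a pseudocount of 5 reads, cattle names only, summed rows, other minimums and a 1.5-fold threshold.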

Additional observations from a re-analysis of the deposited data

How the results depend on the processing

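No paired analysis was possible because each group has 1 library. The other scalings lowered log2 ratios over the table by a median shift of -0.09 (median of ratios), -0.12 (trimmed mean) and -0.13 (authors' normalized values). In that order, the family sum was at 0.57, 0.54 and 0.53, its 3p arms at 0.56, 0.53 and 0.52, and the median of the miR-148 and miR-152 rows at 0.14, 0.11 and 0.10. The endothelial median was at 0.08, 0.05 and 0.04 and the smooth muscle median at -0.34, -0.36 and -0.38, in the same order. The leukocyte median was at -0.36, -0.38 and -0.40 and the red cell median at -0.14, -0.17 and -0.18. The count of family rows called higher was 1 with each of these scalings and with cattle names only, 4 with no minimum, 0 with a minimum of 100 RPM and 5 with a 1.5-fold threshold, since a filter or threshold admits more or fewer rows. Over the table the higher and lower calls were 10 and 9 with cattle names only, 49 and 31 with no minimum, 0 and 6 with a minimum of 100 RPM, and 62 and 35 with a 1.5-fold threshold. Of 28 values of 7 family rows under 4 settings, none changed sign and 4 left the counting interval. These 4 were miR-130a with each of the other scalings and miR-301a with the authors' normalized values. With each of these scalings the family sum fell below its log2 counting interval of 0.598 to 0.716. The same held for the 3p arms, with an interval of 0.589 to 0.708. With cattle names only, arm shares could not be computed, as the 5p arms of miR-130a, miR-130b and miR-301a stand under other species' names. Of the 5 nearest names, 4 stayed with a minimum of 100 RPM. Depth limits miR-301b and mmu-miR-130a-5p, at 15 reads or fewer per library, and the 3 rows with 1 read.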
